A study of Mus musculus with 21 samples.

Results

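Oligodendrocyte precursor cells are represented here by 10 genes chosen by symbol, Pdgfra, Gpr17, Cspg4, Cspg5, Vcan, Ptprz1, Sox6, Lhfpl3, C1ql1 and Neu4, out of the 16318 genes in the deposited table. Each symbol stood for 1 gene ID, and all 10 passed the filter on low counts that left 16303 genes to test. RNA was taken from the whole brains of 21 SAMP8 mice, an inbred strain with accelerated senescence, and each library came from 1 mouse. The control group was 12 mice given PBS (6 female and 6 male). The treated group was 9 mice (3 female and 6 male) given HsTX1[R14A], a peptide that blocks the potassium channel Kv1.3, by subcutaneous injection at 1 mg/kg every other day. Dosing lasted 8 weeks, from 4 to 6 months of age, and all mice of both groups were of the SAMP8 strain. Mice killed before dosing and mice of a normally aging strain were not analysed here.

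Oligodendrocyte precursors are the dividing glia that persist in the adult brain and give rise to the myelinating oligodendrocytes. They carry the PDGF alpha receptor and the proteoglycan NG2, pass through a committed stage marked by Gpr17, and lose these genes as they switch on myelin genes such as Mbp. Their surface and surrounding matrix are rich in proteins that carry chondroitin sulfate chains, of which 4 of the 10 genes encode the core protein. Several of the 10 genes are not restricted to precursors, since astrocytes also express Ptprz1 and Cspg5, pericytes express Cspg4 and fibroblasts of the meninges express Pdgfra. The question addressed was whether precursor genes differed between treatments along with the genes of mature oligodendrocytes. In whole-brain RNA, fewer cells of a type and less RNA per cell cannot be told apart.

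Of the precursor genes, Gpr17 and Cspg4 rose in HsTX1[R14A]-treated brains and none fell in the reported model. Gpr17 was 1.65-fold and Cspg4 1.58-fold higher than in PBS-treated brains. These 2 of 10 genes are 20% of the group, and 15.5% of all tested genes were called higher in the same comparison (edgeR's quasi-likelihood test with sex in the model, Benjamini-Hochberg adjustment over all tested genes, threshold 0.05). The share of all tested genes called lower was 16.1%, against 0 of the 10. These shares differ by transcript length. Pdgfra, Cspg4, Cspg5, Ptprz1, Vcan and Sox6 lie in the longest of 10 equal bins of length, where 41.9% of genes were called higher and 2.83% lower. Gpr17 lies in the next bin, at 28.9% and 5.55%. Among the 10 genes, 7 had a positive log2 fold change, and their median was 0.16, against -0.01 over all tested genes. The calls depended on how the representation of long transcripts in each library was handled, measured as a length slope that averaged -0.08 in PBS and 0.10 in treated mice. With the slope as a covariate neither gene passed (log2 fold change 0.18, adjusted p = 0.580 for Gpr17, and 0.04, adjusted p = 0.934 for Cspg4, edgeR). Once the length and GC trend had been removed, Gpr17 passed, Cspg4 did not (0.04, adjusted p = 0.847) and Cspg5 was called lower, a call that no other way of fitting gave. In the reported model, genes of mature oligodendrocytes and myelin had a median of -0.35, and 14 of 24 fell.

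In PBS-treated brains the 10 genes spanned a wide range of abundance. Levels are given as CPM (counts brought to equal library totals) after TMM scaling, and genes are compared with each other only as CPM per kilobase of the longest annotated transcript. On that scale the mean level was highest for Cspg5, at 38.6 CPM per kilobase, and for Ptprz1, at 25.4. Lhfpl3 followed at 11.7, C1ql1 at 7.38, Pdgfra at 6.45 and Gpr17 at 5.74 CPM per kilobase. The lowest were Sox6 at 1.97, Neu4 at 1.35, Vcan at 1.29 and Cspg4 at 0.936 CPM per kilobase. The coefficient of variation of the level was 44.8% for Cspg4 and 39.4% for Gpr17, while Cspg5 varied by 3.84%. Between the lowest and the highest PBS mouse, Cspg4 differed 3.76-fold, Gpr17 3.61-fold and Cspg5 1.16-fold. Cspg4 was the least deeply counted in its lowest library, at 57 counts, and reached 728 counts in its highest.

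**Figure D1:**
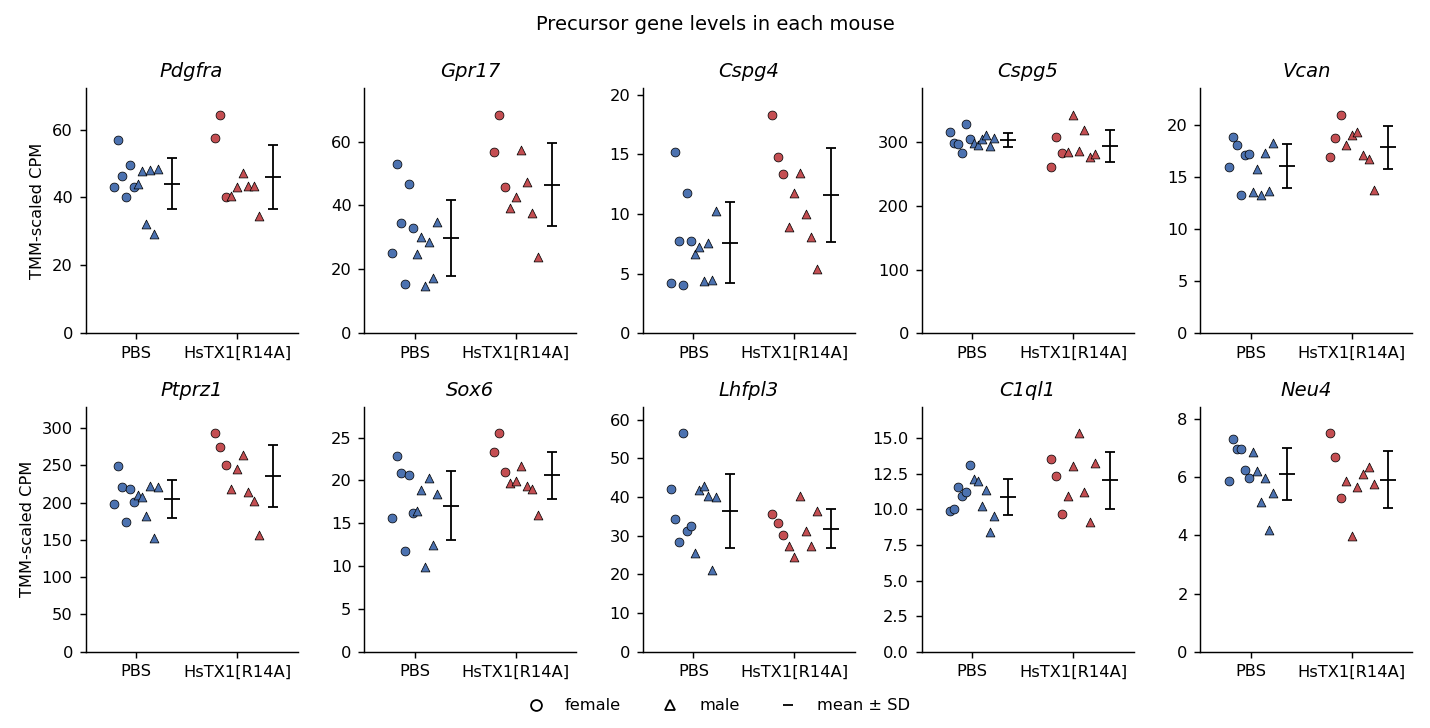
Level of each of the 10 precursor genes in every mouse, as TMM-scaled CPM on the vertical axis with a separate scale for each gene, for 12 PBS-treated mice (blue) and 9 HsTX1[R14A]-treated mice (red). Circles are females, triangles males, and the bar beside each group is the mean with its SD. For Gpr17 and Cspg4, 8 of 9 treated mice lie above the PBS median, yet the groups overlap for every gene.

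Of the receptor genes Gpr17 and Pdgfra, the first passed the test and the second did not. Gpr17 encodes a G protein-coupled receptor that appears as precursors commit to differentiation and disappears before myelination. In PBS-treated mice its level ran from 14.7 CPM to a median of 29.4 and a maximum of 53.1 CPM. In HsTX1[R14A]-treated mice it ran from 23.9 CPM to a median of 45.9 and a maximum of 68.5 CPM. The groups overlapped, with 3 treated mice above every PBS mouse and 8 of 9 above the PBS median. The mean was 29.8 ± 11.8 CPM (SD, n = 12) under PBS and 46.6 ± 13.1 CPM (SD, n = 9) in treated mice. The log2 fold change was 0.72 (standard error 0.194, adjusted p = 0.0185, edgeR). Leaving out any of the 21 mice kept Gpr17 past the threshold, with log2 fold changes from 0.65 to 0.79.

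Pdgfra encodes the alpha receptor for platelet-derived growth factor, which drives division and survival of precursors and is the gene most often used to mark them. Its level in PBS mice ran from 29.1 to 56.9 CPM with a median of 45.2 CPM. In treated mice it ran from 34.5 to 64.4 CPM with a median of 43.3 CPM. Only 3 of 9 treated mice lay above the PBS median, and 2 of these, both females, lay above every PBS mouse. The log2 fold change of 0.10 did not pass the test (standard error 0.105, adjusted p = 0.477, edgeR), and its 95% interval ran from -0.11 to 0.30. A change of the size seen in Gpr17 lies outside this interval.

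Of the 4 chondroitin sulfate proteoglycans, Cspg4 alone passed the test. Cspg4 encodes NG2, the transmembrane proteoglycan that gave precursors the name NG2 glia. Its level in PBS mice ran from 4.04 to 15.2 CPM with a median of 7.41 CPM. In treated mice it ran from 5.41 to 18.3 CPM with a median of 11.8 CPM. The groups overlapped over most of their range, with 1 treated mouse (mouse 71) above every PBS mouse and 8 of 9 above the PBS median. The mean was 7.60 ± 3.41 CPM (SD, n = 12) under PBS and 11.6 ± 3.91 CPM (SD, n = 9) in treated mice, and the log2 fold change was 0.66 (standard error 0.218, adjusted p = 0.0307, edgeR). The call was lost on leaving out PBS mouse 101 (adjusted p = 0.0509) or 90 (0.0600), or treated mouse 71 (0.0655), 72 (0.0522), 88 (0.0586) or 81 (0.0536), with log2 fold changes from 0.58 to 0.65 in these 6 fits.

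Versican, encoded by Vcan, is a secreted proteoglycan of the matrix around precursors. Vcan ran from 13.3 to 18.9 CPM in PBS mice, with a median of 16.5, and from 13.8 to 21.02 CPM in treated mice, with a median of 18.1 CPM. Here 8 of 9 treated mice lay above the PBS median and 3 above every PBS mouse. The log2 fold change of 0.17 (standard error 0.0806) did not pass the threshold (adjusted p = 0.0943, edgeR), but passed it without PBS mouse 102 (adjusted p = 0.0478) and without treated mouse 93 (0.0378).

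Ptprz1 encodes a receptor-type tyrosine phosphatase whose ectodomain carries chondroitin sulfate and binds pleiotrophin. Ptprz1 ran from 152 to 249 CPM in PBS mice, with a median of 208, and from 156 to 293 CPM in treated mice, with a median of 245 CPM. In 4 treated mice it exceeded every PBS mouse, the most for any of the 10 genes. Its log2 fold change of 0.22 (standard error 0.0928) had an adjusted p of 0.0665 (edgeR). It passed the threshold without PBS mouse 84 (adjusted p = 0.0499) or 102 (0.0470) and without treated mouse 93 (0.0154).

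Neuroglycan C, the product of Cspg5, is a transmembrane proteoglycan made by precursors, astrocytes and neurons. Cspg5 ran from 284 to 329 CPM in PBS mice, with a median of 302, and from 261 to 344 CPM in treated mice, with a median of 284 CPM. The treated mice spread wider than the PBS mice, with 4 below and 1 above all of them. Its log2 fold change was -0.05 (standard error 0.0531, adjusted p = 0.452, edgeR), with a 95% interval from -0.16 to 0.05.

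Sox6 encodes a transcription factor that holds precursors in the undifferentiated state. It ran from 9.88 to 22.8 CPM in PBS mice, with a median of 17.4, and from 15.98 to 25.5 CPM in treated mice, with a median of 19.9 CPM. The lowest treated mouse lay well above the lowest PBS mice, and 8 of 9 treated mice lay above the PBS median. The log2 fold change of 0.31 (standard error 0.123) did not pass the threshold (adjusted p = 0.0602, edgeR). It passed on leaving out PBS mouse 84 (adjusted p = 0.0391), 104 (0.0492), 102 (0.0474), 83 (0.0463) or 91 (0.0432), or treated mouse 93 (0.0390).

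The remaining 3 genes showed no difference past the test in the reported model or with any mouse left out. Lhfpl3, a tetraspan membrane protein gene used as a precursor marker, ran from 21.1 to 56.6 CPM in PBS mice, with a median of 37.1, and from 24.5 to 40.4 CPM in treated mice, with a median of 31.3 CPM. Lhfpl3 lay above the PBS median in 1 of 9 treated mice (log2 fold change -0.18, standard error 0.141, adjusted p = 0.326, edgeR). C1ql1, which encodes a secreted protein of the C1q family, ran from 8.41 to 13.1 CPM in PBS mice and from 9.13 to 15.4 CPM in treated mice, with medians of 11.1 and 12.3 CPM. For C1ql1, 3 treated mice lay above all PBS mice (log2 fold change 0.15, standard error 0.0944, adjusted p = 0.199, edgeR).

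Neu4, a sialidase gene, ran from 4.19 to 7.32 CPM in PBS mice and from 3.97 to 7.51 CPM in treated mice, with medians of 6.09 and 5.85 CPM. The treated range of Neu4 enclosed the PBS range, and the log2 fold change was -0.01 (standard error 0.0967, adjusted p = 0.965, edgeR) with a 95% interval from -0.20 to 0.18. Without regard to adjustment, 5 of the 10 genes (Gpr17, Cspg4, Sox6, Ptprz1 and Vcan) had a p under 0.05, all with positive log2 fold changes, as did 7562 of the 16303 tested genes in either direction.

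The starts of Cspg4, which passed the test, and of Pdgfra, which did not, are shown because both genes are used to mark the same cells and their levels correlated across PBS mice. The sequences are from RefSeq on GRCm38.p6 and run 5′ to 3′ from 250 bases before the annotated start to 50 after it. Capitals mark CANNTG, the E-box core that basic helix-loop-helix factors such as Olig2 recognize, which reads the same on either strand. The Cspg4 window is chr9:56864854-56865153 and the Pdgfra window chr5:75152001-75152300, both on the plus strand.
Cspg4: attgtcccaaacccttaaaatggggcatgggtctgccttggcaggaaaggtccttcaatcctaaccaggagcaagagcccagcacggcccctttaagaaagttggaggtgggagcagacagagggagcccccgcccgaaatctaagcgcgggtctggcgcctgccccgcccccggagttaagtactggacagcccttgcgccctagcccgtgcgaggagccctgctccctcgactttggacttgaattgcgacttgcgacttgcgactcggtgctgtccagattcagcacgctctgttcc
Pdgfra: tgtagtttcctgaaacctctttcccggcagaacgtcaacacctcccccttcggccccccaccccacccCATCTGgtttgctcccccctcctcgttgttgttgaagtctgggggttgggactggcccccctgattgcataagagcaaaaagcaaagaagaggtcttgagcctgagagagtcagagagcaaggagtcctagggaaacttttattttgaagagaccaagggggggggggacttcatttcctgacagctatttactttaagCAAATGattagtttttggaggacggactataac
The Pdgfra window holds 2 matches and the Cspg4 window 0, where 72.3% of all 32851 windows of this length hold at least 1. Cspg4 has the more GC-rich start, at 60.0% against 51.0% for Pdgfra and a median of 52.7% over all windows. Windows of 7 of the 10 genes were examined, 12 in all since Sox6 has several starts. Of these 12 windows, 10 hold a match, the exceptions being those of Cspg4 and Ptprz1. The starts of Gpr17, Cspg5 and C1ql1 were not examined, so these counts say nothing about them.

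The other genes of the lineage, grouped by stage, did not move in a single direction. Among 12 further markers of precursors, 5 rose (41.7%, against 15.5% of all tested genes) and 0 fell (16.1% of all tested genes did). Their median log2 fold change was 0.22. Tnr, which encodes the matrix glycoprotein tenascin-R, was 81.5 ± 37.0 CPM (SD, n = 12) under PBS and 150 ± 47.9 CPM (SD, n = 9) in treated mice (log2 fold change 0.96, standard error 0.253, adjusted p = 0.0180, edgeR). Xylt1, the xylosyltransferase that starts chondroitin sulfate chains, was 5.56 ± 2.57 and 9.83 ± 2.96 CPM (log2 fold change 0.86, adjusted p = 0.0208). In both genes 5 treated mice lay above every PBS mouse. The markers with the most negative values were Cdo1 (log2 fold change -0.30, adjusted p = 0.0993) and Sapcd2 (-0.30, adjusted p = 0.134), which did not pass. The count of higher genes was 3 without PBS mouse 73, 101 or 90 or treated mouse 71, 72, 74, 88 or 81, and 6 without treated mouse 93. It was 0 with the length slope as covariate (median log2 fold change -0.02) and 3 with the length and GC trend removed (median 0.01).

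Of 10 genes of committed and newly formed oligodendrocytes, the stage at which Gpr17 itself peaks, 0 rose and 2 fell. The share that fell was 20%, near the 16.1% of all tested genes, of which 15.5% rose. Bcas1, an early myelinating oligodendrocyte gene, fell from 272 ± 62.3 CPM (SD, n = 12) to 176 ± 23.2 CPM (SD, n = 9), and 6 treated mice lay below every PBS mouse (log2 fold change -0.66, standard error 0.119, adjusted p = 0.0145, edgeR). Bmp4, a signal made by newly committed cells, fell by 0.46 on the log2 scale (adjusted p = 0.0302). Itpr2 (log2 fold change 0.30, adjusted p = 0.0752) and Fyn (0.13, adjusted p = 0.127) had the smallest p among those with positive values. Bcas1 passed in all 21 fits that left out 1 mouse (highest adjusted p = 0.0331), and the count of lower genes was 1 without PBS mouse 90 or treated mouse 98 or 88 and 3 without PBS mouse 91.

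Genes of mature oligodendrocytes and myelin mostly fell, with 14 lower and 1 higher of 24 tested. These are 58.3% and 4.17% of the list, against 16.1% and 15.5% of all tested genes. Opalin, a membrane protein gene of late oligodendrocytes, fell by 0.99 on the log2 scale (standard error 0.155, adjusted p = 0.0145, edgeR), from 20.5 ± 7.01 CPM (SD, n = 12) to 10.97 ± 2.62 CPM (SD, n = 9). Mobp fell by 0.67 (adjusted p = 0.0145) and Mbp, the myelin basic protein gene, by 0.40 (standard error 0.0955, adjusted p = 0.0161). Opalin, Mobp and Mbp lay below the PBS median in all 9 treated mice. The only gene of the list that rose was Myrf, the transcription factor that switches on myelin genes (log2 fold change 0.75, standard error 0.268, adjusted p = 0.0404), and Fa2h had a positive value that did not pass (0.23, adjusted p = 0.321). On leaving out 1 mouse at a time, 12 to 14 genes of the list fell, and Myrf, which was at -0.12 (adjusted p = 0.799) with the length slope as covariate, lost its call without PBS mouse 73, 101, 90 or 91 or treated mouse 98, 71, 72, 74, 88 or 81.

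**Figure D2:**
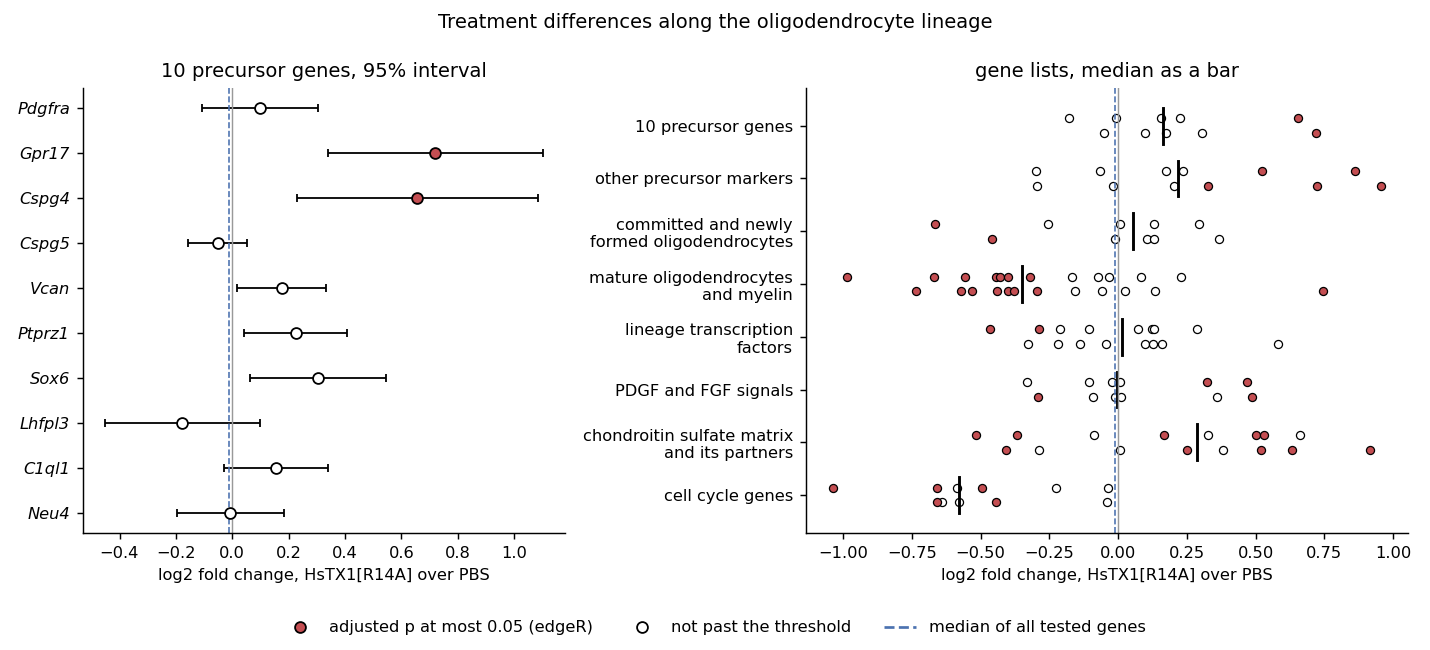
Log2 fold change (treated over PBS, horizontal axis), at left for the 10 precursor genes with 95% intervals and at right for every tested gene of 8 gene lists, 1 point per gene, with the list's median as a bar. Filled points passed the test (edgeR, adjusted p at most 0.05), and the dashed line is the median of all tested genes, -0.01. The medians of the 2 precursor lists are 0.16 and 0.22, that of mature oligodendrocytes and myelin is -0.35 and that of the cell cycle genes is -0.58.

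The transcription factors that specify the lineage lay around 0, with a median log2 fold change of 0.01 over 16 genes, of which 0 rose and 2 fell. The share that fell was 12.5%, against 16.1% of all tested genes, of which 15.5% rose. Olig2, needed to form the lineage, was 31.9 ± 5.92 CPM (SD, n = 12) under PBS and 34.4 ± 6.52 CPM (SD, n = 9) in treated mice (log2 fold change 0.12, adjusted p = 0.436, edgeR). Sox10, present from precursor to myelinating cell, had a log2 fold change of 0.58 (adjusted p = 0.0660) and Zfp488 of 0.29 (adjusted p = 0.0638). The genes that fell were Id2 (log2 fold change -0.47, adjusted p = 0.0193) and Hes1 (-0.29, adjusted p = 0.0299), which encode inhibitors of differentiation in many cell types. The count was 1 without PBS mouse 90 or treated mouse 98, 88 or 81.

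Among ligands and receptors of the PDGF and FGF families, which control division of precursors, 3 of 12 rose and 1 fell, and the median log2 fold change was 0.00. These are 25% and 8.33% of the list, against 15.5% and 16.1% of all tested genes. Pdgfa, the ligand of the alpha receptor in brain, had a log2 fold change of -0.02 (adjusted p = 0.827, edgeR). Pdgfb rose by 0.49 (adjusted p = 0.0230), Fgfr3 by 0.32 (adjusted p = 0.0326) and Fgfr1 by 0.47 (adjusted p = 0.0420). Fgf2, the growth factor used to keep precursors dividing in culture, fell by 0.29 (adjusted p = 0.0378), and Pdgfd had a log2 fold change of -0.33 (adjusted p = 0.0953). The count of higher genes was 1 without PBS mouse 101 or 90 or treated mouse 71, 72 or 88, and that of lower genes was 0 without PBS mouse 73, 82, 83, 90 or 91 or treated mouse 98, 88, 81 or 89.

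Of 11 cell cycle genes, which in adult brain can come from any dividing cell, 0 rose and 5 fell, with a median log2 fold change of -0.58. The share that fell was 45.5%, against 16.1% of all tested genes, of which 15.5% rose. Pcna fell from 51.1 ± 11.6 CPM (SD, n = 12) to 38.8 ± 8.32 CPM (SD, n = 9), with a log2 fold change of -0.44 (adjusted p = 0.0215, edgeR). Ccna2 was 1.81 ± 0.891 and 1.14 ± 0.319 CPM (log2 fold change -0.66, adjusted p = 0.0452). Mki67, the usual marker of cycling cells, had a log2 fold change of -0.59 that did not pass (adjusted p = 0.126). The count of lower genes ran from 1 (without PBS mouse 90) to 6 (without PBS mouse 82 or treated mouse 93), and was under 4 in 12 of the 21 fits that left out 1 mouse.

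Partners of the chondroitin sulfate proteoglycans moved in both directions, with 7 of 16 higher and 3 lower and a median log2 fold change of 0.29. These are 43.8% and 18.8% of the list, against 15.5% and 16.1% of all tested genes. Acan, the aggrecan core protein of perineuronal nets, was 2.29 ± 0.751 CPM (SD, n = 12) under PBS and 4.21 ± 2.20 CPM (SD, n = 9) in treated mice (log2 fold change 0.92, adjusted p = 0.0177, edgeR). Chpf, which lengthens chondroitin chains, rose by 0.53 (adjusted p = 0.0227). Hapln1, a link protein that fastens proteoglycans to hyaluronan, fell by 0.52 (adjusted p = 0.0151), and 5 treated mice lay below every PBS mouse. Ptn, which encodes the Ptprz1 ligand pleiotrophin, fell by 0.41 on the log2 scale (adjusted p = 0.0176), whereas Ptprz1 itself had a log2 fold change of 0.22. With 1 mouse left out, the count of higher genes ran from 2 (without PBS mouse 90 or treated mouse 98) to 10 (without PBS mouse 84 or 102 or treated mouse 93). That count was 0 with the length slope as covariate (median log2 fold change -0.06) and 1 with the length and GC trend removed (median 0.05).

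Markers of other cells that express some of the 10 genes were examined in the same fit. Over all tested genes, 15.5% rose and 16.1% fell. Of 10 mural cell markers, 2 (20%) rose and 0 fell, with a median log2 fold change of -0.07. The markers that rose were Notch3 (log2 fold change 0.97, adjusted p = 0.0255, edgeR) and Abcc9 (0.52, adjusted p = 0.0493), while the pericyte marker Rgs5 (-0.16, adjusted p = 0.0637) and Tagln (-0.45, adjusted p = 0.143) did not pass. The summed level of the 10 mural markers ran from 144 to 173 CPM in PBS mice and from 141 to 164 CPM in treated mice. Of 10 fibroblast and meningeal markers none passed in either direction, all had negative values (median -0.52), and 4 had an unadjusted p under 0.05 (DESeq2 and limma/voom also called 0). The count of lower genes was 3 without treated mouse 72 (Aldh1a2, Slc6a13 and Slc22a6), 1 without treated mouse 71 (Lum) or 93 (Ogn), and 1 with the length and GC trend removed. Aldh1a2 (log2 fold change -0.76, adjusted p = 0.0910) and Slc6a13 (-0.55, adjusted p = 0.101) had the smallest p. The summed level of the fibroblast markers ran from 66.3 to 228 CPM in PBS mice and from 56.1 to 190 CPM in treated mice.

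Of 10 astrocyte markers 1 rose (10%, against 15.5% of all tested genes) and 4 fell (40%, against 16.1%), with Slc4a4 at a log2 fold change of 0.32 (adjusted p = 0.0459, edgeR), Slc1a2 at 0.32 (adjusted p = 0.133), S100b at -0.72 (adjusted p = 0.0152) and Gfap at -0.59 (adjusted p = 0.0312). Their summed level ran from 3501 to 5234 CPM in PBS mice and from 3496 to 5289 CPM in treated mice. Of 10 neuron markers 2 (20%, against 15.5% of all tested genes) rose, Syn1 (0.99, adjusted p = 0.0282) and Syt1 (0.31, adjusted p = 0.0349), and 0 fell, with Snap25 at -0.12 (adjusted p = 0.470) and Slc17a6 at -0.03 (adjusted p = 0.947). The summed level of the neuron markers ran from 5424 to 8506 CPM and from 7017 to 10252 CPM.

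Of 10 microglia markers 0 rose and 4 fell (40%, against 16.1% of all tested genes), among them C1qb (-0.43, adjusted p = 0.0151) and P2ry12 (-0.65, adjusted p = 0.0151), while Sall1 (0.49, adjusted p = 0.0885) and Csf1r (0.28, adjusted p = 0.134) did not pass. Their summed level ran from 432 to 615 CPM in PBS mice and from 375 to 536 CPM in treated mice. Of 8 cerebellar markers none passed and 3 had an unadjusted p under 0.05, with Cbln1 at 1.03 (adjusted p = 0.0773), Neurod1 at 0.73 (adjusted p = 0.0942), Zic1 at -0.14 (adjusted p = 0.754) and Calb1 at -0.19 (adjusted p = 0.234), and their sum ran from 230 to 435 CPM in PBS mice and from 208 to 836 CPM in treated mice. The highest treated value was that of mouse 74, and the other 8 treated mice had sums from 208 to 293 CPM. Without mouse 74 the median log2 fold change of the cerebellar list went from 0.88 to 0.26, and Cbln1 was at 0.32 (adjusted p = 0.368), while Cbln1 passed without treated mouse 93 (1.13, adjusted p = 0.0479). Gpr17 and Cspg4 passed without mouse 74, with log2 fold changes of 0.73 (adjusted p = 0.0303) and 0.68 (adjusted p = 0.0426). With 1 mouse left out, counts ran for mural markers from 0 (without treated mouse 71 or 88) to 2 higher, for astrocyte markers from 1 (without PBS mouse 90 or 91 or treated mouse 81 or 98) to 4 lower, for neuron markers from 0 (without PBS mouse 90 or treated mouse 81) to 3 higher, and for microglia markers from 3 to 6 lower. None of these markers was at 0 in all mice, and the part that other cell types had in the Cspg4 and Gpr17 differences was not tested.

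The sexes were compared because the treated group held 3 females and 6 males. Gpr17 was 34.6 ± 13.8 CPM (SD, n = 6) in PBS females and 57.1 ± 11.3 CPM (SD, n = 3) in treated females. In males it was 25.1 ± 7.78 CPM (SD, n = 6) and 41.3 ± 11.1 CPM (SD, n = 6). The log2 fold change of Gpr17 was 0.72 in females alone and 0.73 in males alone. For Cspg4, PBS females had 8.44 ± 4.36 CPM (SD, n = 6) and treated females 15.5 ± 2.55 CPM (SD, n = 3), a log2 fold change of 0.86. Cspg4 in males was 6.76 ± 2.19 and 9.62 ± 2.84 CPM (SD, n = 6 each), a log2 fold change of 0.52.

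A treatment by sex interaction was called for 0% of all tested genes and for none of the 10 (edgeR), with 270 genes at an unadjusted p under 0.05 (250 by limma/voom, which also called 0). The interaction term, male minus female, was 0.00 for Gpr17 (95% interval -0.79 to 0.79) and -0.35 for Cspg4 (-1.24 to 0.53), so a sex difference of the size of the treatment effect could not be resolved. Within females alone, 0% of all genes were called and 3 of the 10 had an unadjusted p under 0.05, which were Ptprz1, Cspg4 and Gpr17. Within males alone, again 0% were called and 2 of the 10, Gpr17 and Cspg4, had an unadjusted p under 0.05, while 3318 genes did so in females and 4459 in males. Between PBS males and PBS females, 0.0368% of all genes were called and none of the 10, none of which had an unadjusted p under 0.05 (418 genes did). Without sex in the model, Cspg4 had a log2 fold change of 0.61 that no longer passed (adjusted p = 0.0649), and Gpr17 one of 0.64 that did (adjusted p = 0.0445).

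Within the PBS group, 6 of the 10 genes varied together. Over 12 PBS mice, log2 CPM correlated positively in 39 of 45 pairs of genes, with a median Pearson r of 0.42, and 16 pairs had an adjusted p of at most 0.05 (permutation, 100000 resamples, two-sided, Benjamini-Hochberg over 45 pairs). These were all 15 pairs among Pdgfra, Gpr17, Cspg4, Vcan, Ptprz1 and Sox6, and the pair of Pdgfra and Neu4, which missed the threshold by Spearman's rho. Cspg4 and Gpr17 had r = 0.93 (rho = 0.94, permutation, adjusted p = 0.00045 and 0.00090), and r = 0.89 without the 2 mice farthest from the median. Pdgfra and Ptprz1 had r = 0.93 (rho = 0.91, permutation, adjusted p = 0.00045 and 0.00247) and 0.93 without the 2 farthest mice. Pdgfra and Cspg4 had r = 0.80 (rho = 0.82, permutation, adjusted p = 0.00424 and 0.00709), and 0.89 without the 2 farthest mice. Cspg5, Lhfpl3 and C1ql1 correlated with none of the other genes past the threshold, and Lhfpl3 had negative r with Gpr17 (-0.20), Cspg4 (-0.20) and Sox6 (-0.19). Without the 2 farthest mice of each pair these became 0.37, 0.03 and -0.34, so the sign of the first and second rested on those mice.

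The genes that varied together also followed a property of the libraries. Each gene's log2 CPM, less its average over the 21 mice, was fitted by a line on the log2 of its longest transcript within every library, and the slope of that line, the length slope, says how far long transcripts were over- or underrepresented in that library. It ran from -0.384 to 0.147 in PBS mice (mean -0.08 ± 0.161, SD, n = 12) and from -0.142 to 0.234 in treated mice (0.10 ± 0.119, SD, n = 9). Over the 12 PBS mice alone, the slope correlated with Gpr17 (r = 0.94, rho = 0.94, adjusted p = 0.0003 for each, permutation), Sox6 (r = 0.92, rho = 0.91, adjusted p = 0.000433 and 0.000467) and Cspg4 (r = 0.87, rho = 0.92, adjusted p = 0.000433 and 0.00035). It also correlated with Vcan (r = 0.81, rho = 0.81, adjusted p = 0.00267 and 0.0041), Ptprz1 (r = 0.78, rho = 0.79, adjusted p = 0.0056 and 0.00517) and Pdgfra (r = 0.74, rho = 0.82, adjusted p = 0.0127 and 0.0041). Without the 2 mice farthest from the median slope (PBS mice 90 and 103), r was between 0.67 (Vcan) and 0.91 (Gpr17) for these 6 genes. Within the 10 PBS mice whose libraries share the more common form of name, r was between 0.72 (Pdgfra) and 0.94 (Gpr17).

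Neu4 (r = 0.39, rho = 0.51, adjusted p = 0.269 and 0.137), Cspg5 (r = 0.33, rho = 0.20, adjusted p = 0.327 and 0.528), C1ql1 (r = 0.27, rho = 0.20, adjusted p = 0.405 and 0.528) and Lhfpl3 (r = -0.44, rho = -0.44, adjusted p = 0.211 and 0.192) did not follow the slope past the threshold. Without the same 2 mice, r was 0.77 for Neu4, -0.02 for Cspg5, 0.37 for C1ql1 and 0.11 for Lhfpl3, so Neu4 then lay within the range of the 6 genes above and the negative value of Lhfpl3 rested on those mice. Cspg5 has a longest annotated transcript of 7868 bases, about as long as that of Cspg4 (8121 bases). Neu4 (4511 bases), Lhfpl3 (3115 bases) and C1ql1 (1473 bases) are shorter than each of the 6 genes above, of which Gpr17 is the shortest (5195 bases). The part that transcript length had in which genes followed the slope was not tested. The lowest treated values of Gpr17, Cspg4, Pdgfra, Vcan, Ptprz1 and Sox6 were all in mouse 93, which had the lowest slope of the treated group. The highest PBS values of the same 6 genes were all in mouse 84, which had the highest slope of the PBS group.

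**Figure D3:**
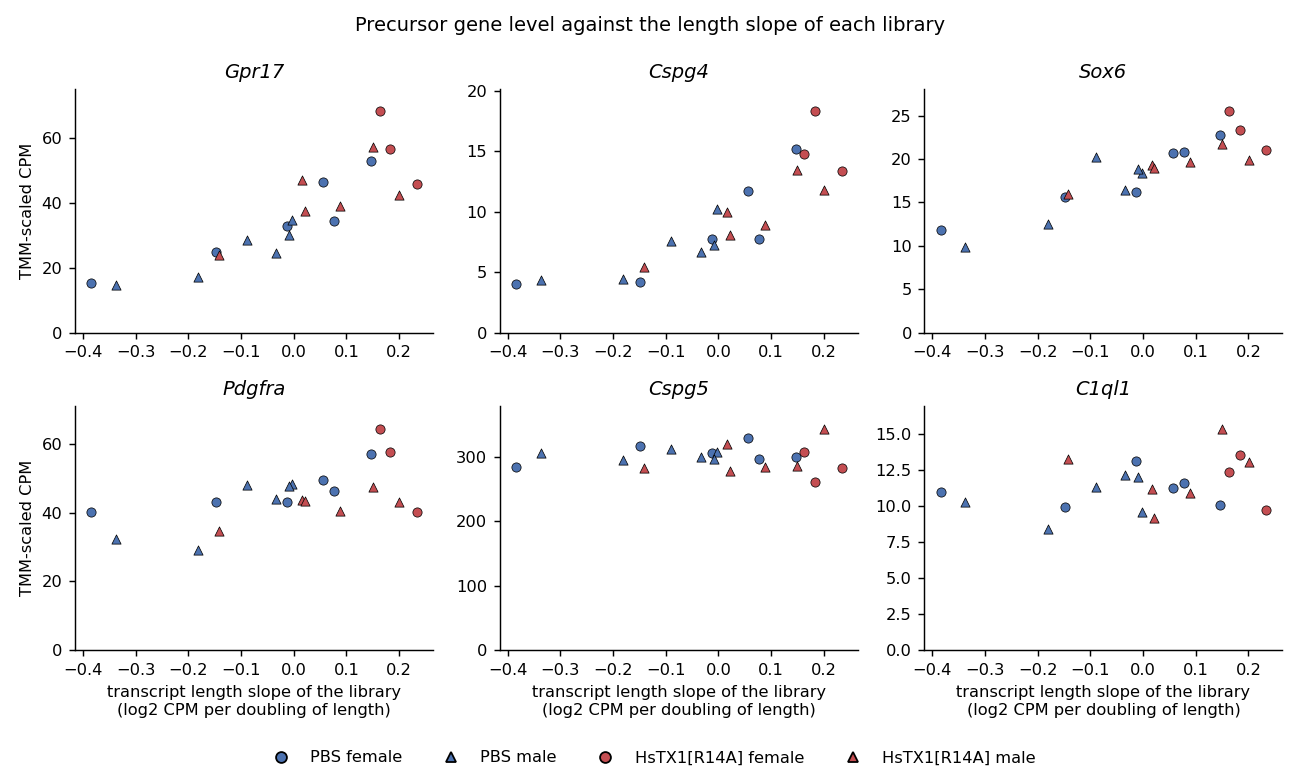
Level of 6 precursor genes (TMM-scaled CPM, vertical axis) against the transcript length slope of the library (log2 CPM per doubling of transcript length, horizontal axis), 1 point per mouse, colored by treatment and shaped by sex. Gpr17, Cspg4 and Sox6 climb with the slope within the 12 PBS mice (r from 0.87 to 0.94), and treated mouse 93, which has the lowest slope of its group (-0.142), has the lowest treated level of all 3. Cspg5 and C1ql1 do not climb past the test.

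Transcript length was set beside the treatment result for that reason. When genes were split by length into 10 equal bins, in the bin of longest transcripts (6696 bases or more), 41.9% of genes were called higher and 2.83% lower, and the median log2 fold change was 0.30. Of the 10 precursor genes, 6 (Pdgfra, Cspg4, Cspg5, Ptprz1, Vcan and Sox6) lie in that bin, and their log2 fold changes ran from -0.05 to 0.66. Cspg4 lay above that median, Sox6 at 0.31 lay next to it, and Pdgfra, Cspg5, Ptprz1 and Vcan lay below it. Tnr (12202 bases) and Xylt1 (9020 bases), of the further precursor markers, also lie in that bin. Gpr17, with 5195 bases, lies in the next bin, where 28.9% of genes were called higher and the median was 0.17. Genes of mature oligodendrocytes are shorter, with a median transcript of 2716 bases. The bin that spans this length had a median log2 fold change of -0.07, with 8.19% of genes called higher and 19.7% lower.

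Once the trend of log2 CPM with length and GC content had been taken out of every library, Gpr17 stayed past the threshold at 0.44 (standard error 0.114, adjusted p = 0.0196, edgeR) and Cspg4 was at 0.04 (adjusted p = 0.847). In that fit Cspg5 passed the threshold in the negative direction, at -0.49 (standard error 0.155, adjusted p = 0.0392). No other way of fitting called Cspg5, which was at -0.05 (standard error 0.0531) in the reported model and had not followed the slope. The trend was taken out of every gene alike, and whether this removal made the Cspg5 difference was not tested. Of the 24 mature oligodendrocyte genes, 11 were lower and 0 higher with the trend removed. With the length slope itself as a covariate, Gpr17 was at 0.18 (adjusted p = 0.580), Cspg4 at 0.04 (adjusted p = 0.934), and no gene in the whole table passed, with 1865 at an unadjusted p under 0.05. The slope and the treatment are partly confounded in these mice, so what each contributes cannot be told apart. The median log2 fold change of the mature list was -0.25 with the trend removed and -0.26 with the slope as covariate, while that of the 10 precursor genes was 0.03 and -0.01.

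**Figure D4:**
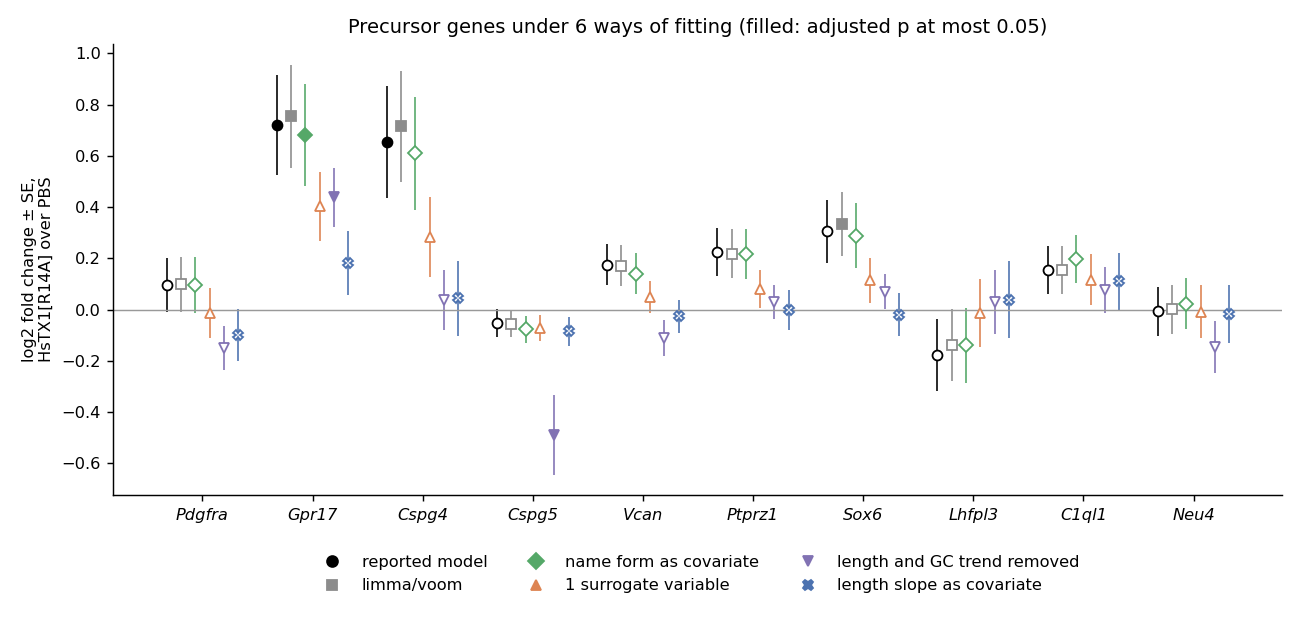
Log2 fold change, treated over PBS (vertical axis, with its standard error) for each of the 10 precursor genes under 6 ways of fitting, of which the first is the model reported. Filled symbols passed an adjusted p of 0.05. Gpr17 passes in 4 of the 6 and Cspg4 in 2, and all 10 genes lie between -0.10 and 0.18 with the length slope as covariate.

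The libraries carry 2 forms of name in the column headers, one shared by 10 PBS and 5 treated mice and the other by 2 PBS and 4 treated mice. Within the more common form, Gpr17 was 27.6 ± 11.4 CPM (SD, n = 10) under PBS and 49.1 ± 17.6 CPM (SD, n = 5) in treated mice. Its log2 fold change there was 0.87 (adjusted p = 0.0615, edgeR), and that of Cspg4 was 0.83 (adjusted p = 0.0751). Within the other form, Gpr17 was 34.9 and 46.6 CPM in the 2 PBS mice and ran from 37.7 to 47.2 CPM in the 4 treated mice, a log2 fold change of 0.16 (adjusted p = 0.855), and Cspg4 had 0.05 (adjusted p = 0.953). Neither form alone called any gene of the table, with 5797 and 532 at an unadjusted p under 0.05. With the name form as a covariate over all mice, Gpr17 passed (0.68, adjusted p = 0.0433) and Cspg4 did not (0.61, adjusted p = 0.0603).

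Genes that overlap the 10 in the annotation were checked, since the strand setting of the counting is not given in the sources used here. Gpr17 lies within Lims2 on the opposite strand. Lims2 was 6.18 ± 0.654 CPM (SD, n = 12) under PBS and 6.15 ± 0.906 CPM (SD, n = 9) in treated mice (log2 fold change 0.01, adjusted p = 0.908, edgeR), below the Gpr17 level in every group. Vcan is overlapped on the opposite strand by Gm4117, which was at 0.473 ± 0.175 and 0.229 ± 0.0862 CPM and fell by 1.05 on the log2 scale (adjusted p = 0.0170), with 3 to 19 counts per library. Lhfpl3 shares its locus with 6030443J06Rik on the same strand (log2 fold change 0.27, adjusted p = 0.315) and A930003O13Rik on the opposite strand (0.09, adjusted p = 0.753), which reached at most 0.830 and 1.11 CPM. Reads in the shared stretches may be split between these genes, so the Gpr17, Vcan and Lhfpl3 values are uncertain to that extent, which was not tested.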

How the data were processed

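Whole-brain RNA of 21 SAMP8 mice was sequenced with 1 library per mouse. The authors aligned reads to GRCm38 with STAR within an nf-core pipeline, quantified them with Salmon and deposited a table of 16318 genes holding estimated counts without any scaling. The filter that left these genes and the strand setting are not given in the sources used here, and the labels name another library kit (SMARTER) than the study's methods (an MGI directional kit). These values were rounded for the tests, and 90.5% differed from a whole number by at most 0.01. The table also holds 53 per-sample columns that were not used (37 of CPM and 16 of counts of other libraries) and the authors' fold changes and p-values, which were not used. Groups came from the labels.

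Library totals ran from 14917174 to 47613792 counts. Over the 48 pairs of libraries of the same treatment and sex none agreed within sampling noise, since a chi-square statistic averaged 7.58 to 288 for each gene. After filterByExpr, 16303 genes were tested in edgeR 4.0.16 (R 4.3.3, glmQLFit and glmQLFTest, TMM scaling) with sex and treatment in the model. The study used limma/voom with a correction for sex, which is an alternative here (limma 3.58.1), as are DESeq2 1.42.0 and 1 surrogate variable from sva 3.50.0. The standard error is the log2 fold change divided by the square root of F, and 95% intervals assume a normal distribution. Log2 CPM carried a prior count of 2. Transcript lengths came from the longest transcript in GENCODE vM21 for GRCm38 (99.5% of tested genes), and trends were removed by loess (span 0.5). Correlations used 100000 permutations. The edgeR test was also run on simulated counts. These held no length slope, so that run cannot show how the slope affects the calls.

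The members and all gene lists were chosen with earlier results of these data known, so the counts are descriptions and no set test was run. Of the other lists, the genes named are the 2 with the smallest p in each direction whose mean log2 CPM was 0 or more, plus Mbp, Olig2 and Sox10. Another gene named by this rule is left out. Fgfr1, Pdgfa, Mki67 and the genes overlapping the members were named after their values were seen. Of the list names, 9630013A20Rik, Cemip2, Aurkb, Sept4 and Septin4 were not analysed here.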

Additional observations from a re-analysis of the deposited data

Results flagged for a closer look

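Among 40 groups examined (each of the 10 genes in PBS females, PBS males, treated males and all treated mice), 1 value stood apart from the rest of its group. Neu4 in HsTX1[R14A]-treated males was lowest in mouse 81, at 3.97 CPM, where the other 5 males of the group lay between 5.64 and 6.35 CPM, and the gap to the nearest mouse was 0.702 of the whole range. Chance gives such a gap in about 1 in 20 groups. Without mouse 81 the log2 fold change of Neu4 was 0.04 (adjusted p = 0.755, edgeR).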

How the results depend on the processing

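Gpr17 kept its direction under all 14 alternatives and lost the threshold under 4, and Cspg4 lost it under 8. With 1 surrogate variable Gpr17 was 0.40 (adjusted p = 0.0681, edgeR) and Cspg4 0.285 (0.255), and without both libraries of lowest length slope Cspg4 was 0.55 (0.0629), while the other values stand beside each result. The number of the 10 precursor genes called higher, 2 as reported, was 4 with DESeq2, 1 without a sex term, with the name form as covariate, with the length and GC trend removed and without both libraries of lowest length slope (PBS mice 103 and 90, an alternative chosen after seeing the data), and 0 with the length slope as covariate, with 1 surrogate variable and within either name form. With limma/voom it was 3, since Sox6 also passed. Over all 16303 tested genes, DESeq2 called 6145 and limma/voom 5201, against 5144 in the reported model. The number of the 10 precursor genes called lower was 1 with the trend removed. With 1 mouse left out, 1 to 5 were called higher and 0 lower.

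Of the mature oligodendrocyte genes, 14 as reported were lower, but 8 with 1 surrogate variable and 0 with the length slope as covariate or within either name form. The count of those called higher was 0 with limma/voom, without a sex term, with either covariate, with 1 surrogate variable, with the trend removed, within either name form and without the 2 libraries, and 0 to 1 with 1 mouse left out. Of the 12 further precursor markers, 2 were called higher with the name form as covariate and 1 with 1 surrogate variable. For the 16 chondroitin sulfate partners these counts were 1 and 0. Over all genes, 5144 calls became 2984 without a sex term, 1999 with the name form, 0 with the length slope, 1104 with 1 surrogate variable, 2485 with the trend removed, 0 within either name form, 2887 without the 2 libraries, and 2289 (without PBS mouse 90) to 6614 (without treated mouse 93) with 1 mouse left out.

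Of 58 genes called in the lists, 9 turned under some alternative, with none past the threshold there, and 0 with 1 mouse left out. With the length slope as covariate these were Myrf (-0.12), Syn1 (-0.062), Fgfr1 (-0.038), Abcc9 (-0.0695), Ncan (-0.074), Ptprs (-0.023) and Mmp15 (-0.039), within the less common name form Tnc (-0.022) and Megf11 (-0.041), and with the trend removed Megf11 (-0.0155). Of the 10 precursor genes, those that turned had not passed. Pdgfra was -0.10 with the length slope, -0.013 with 1 surrogate variable, -0.15 with the trend removed and -0.21 within the less common name form. Vcan was -0.026 with the slope and -0.11 with the trend removed, Lhfpl3 0.039 and 0.030, and Sox6 -0.020 with the slope. Neu4 was 0.0016 with limma/voom, 0.0046 with DESeq2, 0.024 with the name form and 0.056 within the more common form, and -0.055 to 0.039 with 1 mouse left out. The cause of these changes was not tested, except that the 2 name forms hold fewer mice.

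No paired analysis was possible because each mouse has a number of its own and the groups share none. The paper states that treatment was randomized within cages. The labels used here do not give the cage, so it could not enter the model. The depth of 57 counts for Cspg4 in its lowest library limits that value, and 3 treated females limit any comparison of the sexes.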
